A study of Rattus norvegicus with 6 samples.

Results

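The chemokine ligands were the 33 genes whose platform symbol is a numbered Ccl or Cxcl name, Cx3cl1 or Xcl1, out of 15037 genes measured. Each had 1 probe set, so the step of taking a gene's brightest probe set set none aside. They were measured in rat tracheal basal cells (rBC), the stem cells of the airway lining, isolated at 12 weeks of age from male Sprague Dawley animals of wild-type genotype. The labels describe 3 lines, each pooled from 3 animals, divided at isolation between EpiX and BEGM. RNA was taken after 8 days, giving 3 arrays from EpiX cultures and 3 arrays from BEGM cultures, numbered 1 to 3 in each medium. BEGM is a bronchial epithelial growth medium, and EpiX is another medium for epithelial cells. Fresh tissue and cells from the start of culture were not analysed here, so each difference sets one medium against the other.

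Chemokines are small secreted or membrane-bound proteins that direct the migration of leukocytes through receptors on those cells, and they are sorted into CC, CXC, CX3C and C families by the spacing of their first cysteines. Airway epithelium makes some of them constantly and others on demand, when cytokines such as interleukin-1 or tumour necrosis factor activate NF-kB, or when interferons activate STAT and IRF factors. The members were read in groups by the cells they are best known to attract: 9 monocyte and T cell chemokines, 3 neutrophil chemokines, 3 interferon-type chemokines, 8 mucosal and epithelial chemokines, and the remaining 10 as 4 lymphoid and 6 type 2 or lymphocyte chemokines. Cxcl3 had no probe set with that symbol and was not analysed here.

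All levels are the deposited signals on a log scale taken as log2, and differences are EpiX minus BEGM. The median over all probe sets was 6.10, 6.11 and 6.15 on EpiX arrays 1, 2 and 3 and 6.11, 6.18 and 6.25 on BEGM arrays 1, 2 and 3. The 23 probe sets whose IDs mark them as background controls, graded by GC content, spanned 3.12 to 6.99 over the arrays, so a level inside that span is not distinguished from background here. BEGM array 1 stood apart from its group: over all genes it correlated at 0.977 to 0.986 with the other BEGM arrays and at 0.982 to 0.985 with the EpiX arrays, while BEGM arrays 2 and 3 correlated at 0.953 to 0.971 with the EpiX arrays. The defining leukocyte genes Ptprc, Csf1r and Tyrobp lay between 3.63 and 4.08 on the EpiX arrays and between 3.43 and 4.24 on the BEGM arrays, inside the span of the background controls. Of the wider leukocyte list, Cd14 lay above that span, at 11.71 to 12.00 in EpiX and 10.95 to 11.90 in BEGM. Cd68 also lay above it, at 9.17 to 11.36 in EpiX and 8.65 to 10.22 in BEGM. The epithelial genes Krt14, Cdh1 and Epcam lay between 12.04 and 17.13 on the EpiX arrays and between 12.31 and 17.08 on the BEGM arrays. Tp63, another defining epithelial gene, differed between the media, at 14.62 to 14.80 in EpiX and 12.23 to 12.93 in BEGM. In a mixed culture, fewer cells of a type and less RNA per cell cannot be told apart.

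In EpiX cultures the monocyte attractants Ccl2 and Ccl7 and the neutrophil attractant Cxcl1 fell, and the mucosal chemokine Cxcl17 rose. Gene by gene, limma called 4 of the 33 ligands at a Benjamini-Hochberg adjusted p under 0.05 over all genes, which is 12.1% of them, against 5.78% of all 15037 genes. The 3 called lower made up 9.09% of the ligands, against 3.15% of all genes, and the 1 called higher 3.03%, against 2.63% of all genes. Over all genes 395 were higher and 474 lower, and with each array centred on its median, which moved the median of all differences to 0.13, 560 were higher and 409 lower. The same 4 ligands were called, in the same directions, under that centring and under quantile normalization. The median difference over the 33 ligands was -0.12, against 0.0022 over all genes. All 3 EpiX arrays lay below all 3 BEGM arrays for 6 ligands (14.5% of all genes did so) and above them for 1 (13.5% of all genes).

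**Figure D1:**
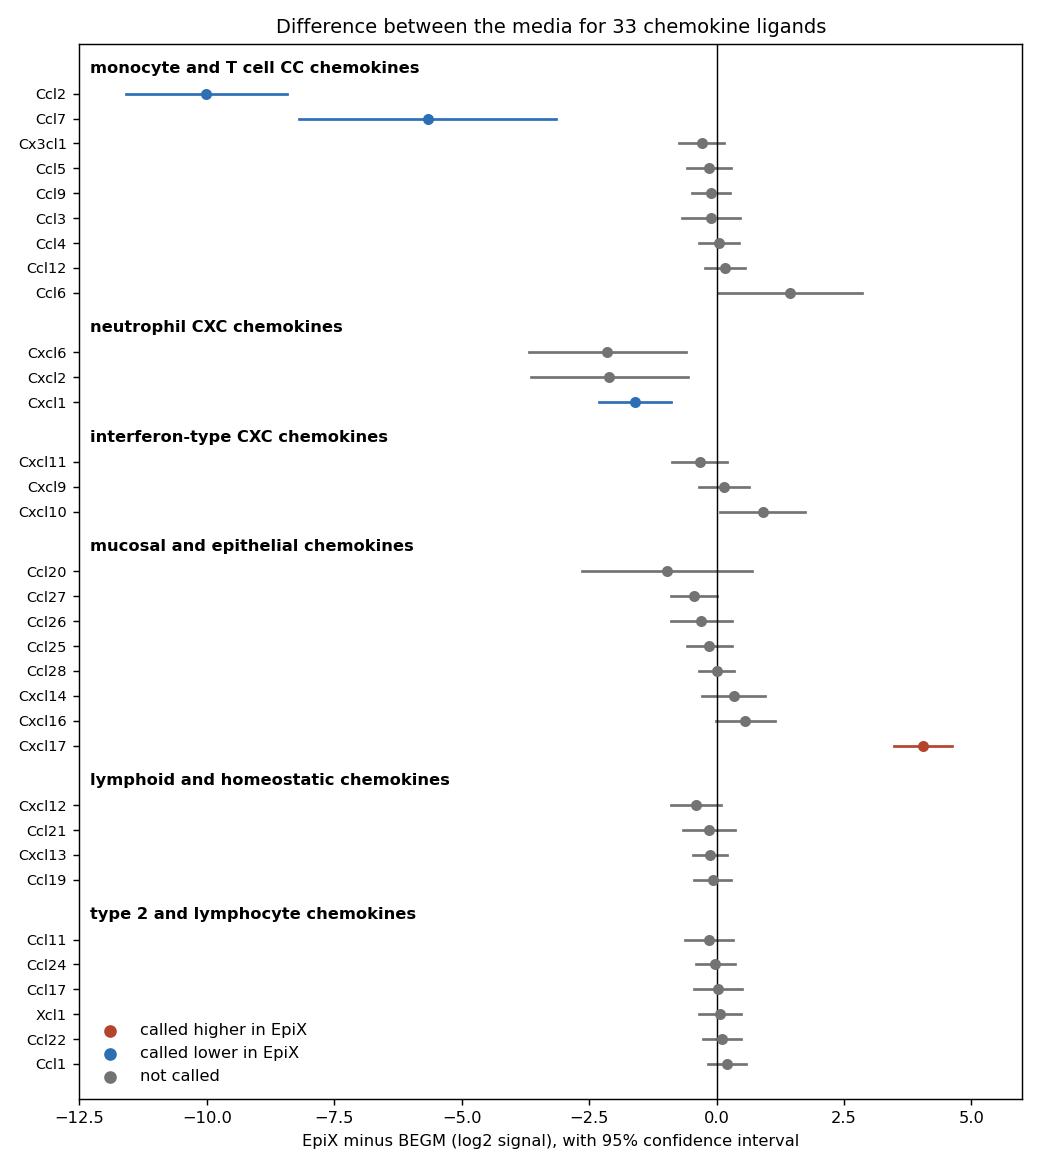
Difference between EpiX and BEGM for each of the 33 chemokine ligands, in log2 signal on the horizontal axis, with the 95% confidence interval of the fit as a bar and the 6 groups of ligands down the page. Ccl2, at -10.01, and Ccl7, at -5.67, lie far to the left, the 3 neutrophil ligands between -2.14 and -1.60, and Cxcl17 to the right at 4.04, while most other intervals cross 0.

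Ccl2, the main attractant of monocytes through the receptor Ccr2, showed the largest difference among the ligands. Its signal was 5.45, 5.98 and 6.74 on EpiX arrays 1, 2 and 3, against 14.50, 16.79 and 16.91 on BEGM arrays 1, 2 and 3. The media did not overlap, the EpiX values lay inside the span of the background controls, and within BEGM the first array was lowest. The fall was 10.01 ± 0.67 (SE, n = 3 per medium; limma adjusted p = 0.00168), and no fold is given against EpiX values inside that span. It was seen in all 3 same-numbered pairs, with differences of -9.05, -10.81 and -10.17. The call was lost without both arrays of number 2 (adjusted p = 0.17), a setting in which limma called 0 of all genes and 1582 genes had an unadjusted p under 0.05.

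Ccl7, a close relative of Ccl2 that attracts monocytes through several CC receptors, fell by 5.67 ± 1.07 (SE, n = 3 per medium; limma adjusted p = 0.0311). It was at 4.75, 4.57 and 4.75 on the EpiX arrays, against 7.57, 11.56 and 11.95 on the BEGM arrays. The EpiX values lay inside the span of the background controls and close together, whereas BEGM array 1 was far under the other BEGM arrays, and the same-numbered differences were -2.82, -7.00 and -7.19. Without BEGM array 1 the difference was -7.07 (adjusted p = 2.97e-05). The call was lost without EpiX array 1 (adjusted p = 0.105), EpiX array 2 (0.134), EpiX array 3 (0.0843), BEGM array 2 (0.128) or BEGM array 3 (0.0643), and with both arrays numbered 2 (0.419) or 3 (0.13) left out. Over all 9 settings that leave arrays out, the difference was -7.10 to -4.88.

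Ccl2 and Ccl7 are next to each other on rat chromosome 10, in a run of 5 protein-coding genes that RefSeq orders as Ccl2, Ccl7, Ccl11, Ccl12 and Ccl1. The remaining genes of that run did not pass the test: Ccl11, an attractant of eosinophils, Ccl12, which acts on monocytes in mice, and Ccl1, a ligand of Ccr8, each had a 95% interval within 1 log2 unit of 0. All values of these genes lay inside the span of the background controls, where a narrow interval says little about a change. A second run on the same chromosome holds Ccl5, Ccl9, Ccl6, Ccl3 and Ccl4, and none of these passed. Ccl6, a CC chemokine described in rodents, was at 8.13, 9.17 and 7.67 on the EpiX arrays, against 8.07, 6.67 and 5.90 on the BEGM arrays. BEGM array 1 lay among the EpiX values, and the difference of 1.44 ± 0.60 (SE) did not pass (limma adjusted p = 0.216). Without BEGM array 1 it was 2.04 and was called higher (adjusted p = 0.0291), in a fit that called 6.57% of all genes higher. Ccl3, Ccl4, Ccl5, Ccl9, Ccl12 and the membrane-bound Cx3cl1 made up the rest of the monocyte and T cell group. The group of 9 thus held 2 falls, 0 rises and 7 members without a call, and its median difference was -0.12.

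Fibroblast genes were also at lower levels on the EpiX arrays. The mean level over 9 measured fibroblast genes was 5.29, 5.33 and 5.77 on the EpiX arrays, against 6.50, 7.24 and 10.11 on the BEGM arrays, and their median difference was -2.66. None of the 9 passed the test (Col1a1 -3.86 ± 1.16, SE, limma adjusted p = 0.109; Col1a2 -3.71 ± 0.94, adjusted p = 0.072, and 0.0405 with the array number as a block), but Col1a1 was called without BEGM array 1 (adjusted p = 0.0252) or BEGM array 3 (0.0204), and Col1a2 without BEGM array 1 (0.00951), BEGM array 3 (0.0235) or both arrays numbered 1 (0.0311). Dcn (-0.73, limma adjusted p = 0.239) and Pdgfra (-1.39, 0.462) overlapped between the media, with BEGM array 1 below EpiX array 1. For the other fibroblast genes all EpiX arrays lay below all BEGM arrays, as for 14.5% of all genes. Within BEGM, Ccl2, Ccl7 and the fibroblast mean had the same order, lowest on array 1 and highest on array 3. Cxcl1, also called lower, was highest on BEGM array 2. The share of all genes with the order of the fibroblast mean was not counted, and the part of fibroblasts in the ligands' levels was not tested. The endothelial gene Esam, at 6.33, 5.87 and 6.14 in EpiX and 6.87, 8.44 and 7.57 in BEGM (-1.51, adjusted p = 0.0685), was called without BEGM array 1 (0.00775) or both arrays numbered 1 (0.0192), and Tek (-0.90, adjusted p = 0.209) was not. The 17 measured leukocyte genes, 10 of them dim in both media (a mean below 4.50, the level under which the dimmest 25% of all genes lay), averaged 5.04 to 5.12 on the EpiX arrays and 4.99 to 5.10 on the BEGM arrays, with none called, and the 8 endothelial genes 4.37 to 4.54 on the EpiX arrays and 4.78 to 4.93 on the BEGM arrays, also with none called. Cd68 (1.04, adjusted p = 0.4) and Cd14 (0.49, adjusted p = 0.316), found in macrophages and also in other cells, differed most in the leukocyte list, and Cd14 was called without BEGM array 1 (0.0338). Of 7 epithelial and basal genes 2 rose, against 2.63% of all genes: the basal cell regulator Tp63 by 2.15 ± 0.20 (SE, limma adjusted p = 0.00431) and the keratin Krt15 by 4.12 ± 0.71 (adjusted p = 0.0229). Without a call, Cdh1 (-0.63, limma adjusted p = 0.087) and Epcam (-0.44, 0.404) were lower in EpiX. For Cdh1 all EpiX arrays lay below all BEGM arrays. Krt14 (0.29, adjusted p = 0.423), Ngfr (0.34, 0.253) and Itga6 (0.16, 0.681) were higher in EpiX, also without a call. Krt15 was not called without EpiX array 1 (0.0776), EpiX array 2 (0.113) or BEGM array 2 (0.095), nor with both arrays numbered 2 left out (0.364), and Tp63 was not called in that last setting (0.221).

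**Figure D2:**
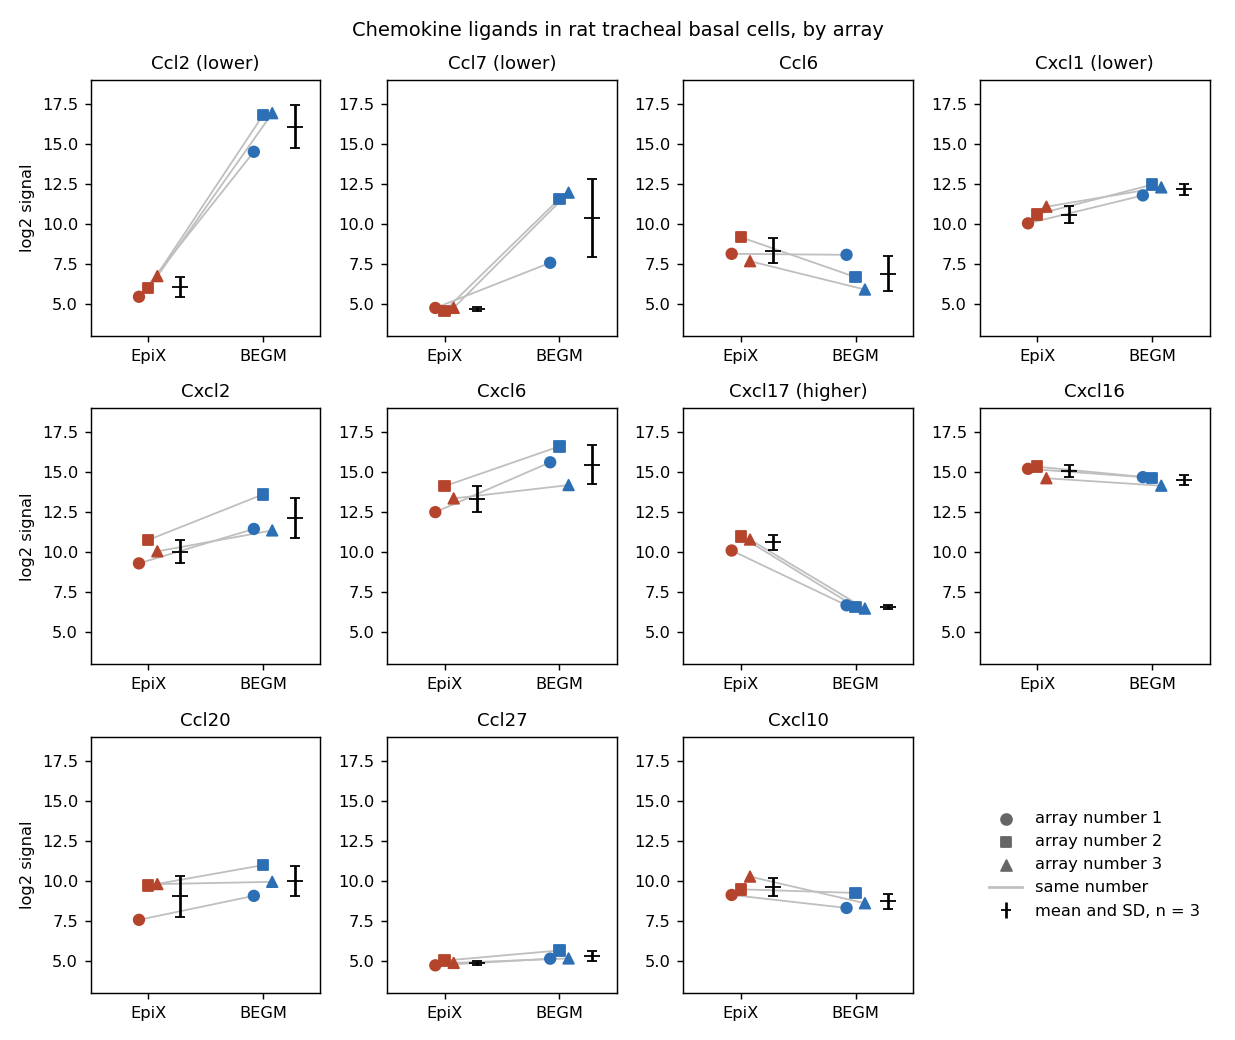
Log2 signal on each array for the 11 ligands described singly, with EpiX on the left and BEGM on the right of each panel, the array number as the marker shape, grey lines joining equal numbers, and the mean with its SD (n = 3) in black. "Lower" and "higher" mark called differences of EpiX from BEGM, and BEGM array 1 (circle) is the lowest BEGM array for Ccl2, Ccl7, Cxcl1, Ccl20, Ccl27 and Cxcl10.

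The neutrophil chemokines Cxcl1, Cxcl2 and Cxcl6 act through the receptor Cxcr2 and are classical targets of NF-kB. RefSeq places them in a run of 7 protein-coding genes on chromosome 14, with Cxcl3 and the platelet chemokines Pf4 and Ppbp between them. Their promoters are shown because all 3 ligands were lower on every EpiX array than on any BEGM array and carry a similar element. The sequences are the 250 bases before the RefSeq start (build GRCr8), 5′ to 3′ on the strand of the gene, with matches to the NF-kB consensus in capitals.
Cxcl1 (chr14:17479322-17479571, minus strand): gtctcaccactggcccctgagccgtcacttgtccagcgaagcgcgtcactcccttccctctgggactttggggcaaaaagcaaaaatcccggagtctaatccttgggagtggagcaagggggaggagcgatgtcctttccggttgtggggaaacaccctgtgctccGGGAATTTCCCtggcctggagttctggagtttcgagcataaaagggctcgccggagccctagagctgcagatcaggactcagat
Cxcl2 (chr14:17467256-17467505, minus strand): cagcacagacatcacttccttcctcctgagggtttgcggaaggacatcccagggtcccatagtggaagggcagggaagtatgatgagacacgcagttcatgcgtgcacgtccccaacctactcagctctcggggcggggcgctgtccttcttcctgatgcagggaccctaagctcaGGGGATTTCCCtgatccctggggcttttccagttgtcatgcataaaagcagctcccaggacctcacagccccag
Cxcl6 (chr14:17596418-17596667, minus strand): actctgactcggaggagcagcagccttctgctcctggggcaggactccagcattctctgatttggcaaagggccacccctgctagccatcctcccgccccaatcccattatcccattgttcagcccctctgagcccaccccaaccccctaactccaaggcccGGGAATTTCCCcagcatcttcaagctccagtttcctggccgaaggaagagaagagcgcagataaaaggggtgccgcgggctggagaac
Cxcl1 and Cxcl6 hold the same 11 bases, GGGAATTTCCC, at -84 to -74 and at -88 to -78 from the start, and Cxcl2 holds GGGGATTTCCC at -74 to -64. On both strands the consensus was found in 7 of the 28 ligand promoters in the RefSeq table (25%), against 3.52% of 27457 promoters of the same length. The 4 others were those of Cxcl10, Cxcl11, Ccl9 and Ccl20. Of the 7 ligands with a match, Cxcl1 alone passed the test between the media. The RefSeq table held no promoter for Ccl2, which was not searched. A match describes these letters and is not evidence that a factor was bound.

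Cxcl1 fell by 1.60 ± 0.30 (SE, n = 3 per medium; limma adjusted p = 0.0303). It was at 10.03, 10.60 and 11.07 on the EpiX arrays, against 11.78, 12.45 and 12.28 on the BEGM arrays, a 3.03-fold lower signal. The spread within each medium was small, with an SD of 0.52 in EpiX and 0.35 in BEGM. The call was lost without EpiX array 1 (adjusted p = 0.0804), EpiX array 2 (0.129), BEGM array 2 (0.125) or BEGM array 3 (0.0769), and with both arrays numbered 2 (0.41) or 3 (0.0645) left out. Over all 9 settings that leave arrays out, the difference was -1.85 to -1.33.

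Cxcl2 differed by more than Cxcl1 but with a wider spread. Its signal was 9.31, 10.77 and 10.06 on the EpiX arrays, against 11.46, 13.62 and 11.37 on the BEGM arrays. In each medium array 2 was the highest, and the difference of -2.10 ± 0.65 (SE) did not pass (limma adjusted p = 0.118). Cxcl6, for which RefSeq lists Cxcl5 as a second name, was at 12.51, 14.13 and 13.37 on the EpiX arrays, against 15.62, 16.62 and 14.20 on the BEGM arrays. Its difference of -2.14 ± 0.65 (SE) also did not pass (adjusted p = 0.112), and EpiX array 2 came within 0.1 of BEGM array 3. When the array number was entered as a block, which compares the media within a number, Cxcl2 (adjusted p = 0.0194) and Cxcl6 (0.0434) were called as well, making 5 ligands lower, in a fit that called 4.39% of all genes lower. The same-numbered differences were -2.15, -2.85 and -1.31 for Cxcl2 and -3.11, -2.49 and -0.83 for Cxcl6. Cxcl6 was also called without BEGM array 3 (difference -2.78, adjusted p = 0.0439), in a fit that called 2.15% of all genes lower. Ppbp, a neutrophil-activating relative not chosen by the symbol rule, was at 6.99, 6.06 and 6.86 on the EpiX arrays, against 9.58, 6.63 and 5.86 on the BEGM arrays. It was high on BEGM array 1 alone, and its difference of -0.72 ± 0.90 (SE; adjusted p = 0.704) turned to 0.39 without that array. The similarity of Cxcl1, Cxcl2 and Cxcl3 as genes means that probes could bind more than 1 of them, which was not tested.

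Cxcl17, a chemokine of mucosal surfaces that is also known for killing microbes, rose by 4.04 ± 0.24 (SE, n = 3 per medium; limma adjusted p = 0.00138), the opposite direction from Ccl2, Ccl7 and Cxcl1. Its signal was 10.11, 10.99 and 10.80 on the EpiX arrays, against 6.69, 6.59 and 6.49 on the BEGM arrays. The BEGM values lay within 0.21 of each other, inside the span of the background controls, so no fold is given. BEGM array 1 did not stand apart here. Of the 16 alternatives run, 1 ended the call, leaving out both arrays numbered 2 (adjusted p = 0.145). The promoters of Cxcl17 and of Ccl7, which moved in opposite directions, are shown for comparison with those of the neutrophil ligands.
Cxcl17 (chr1:90124536-90124785, minus strand): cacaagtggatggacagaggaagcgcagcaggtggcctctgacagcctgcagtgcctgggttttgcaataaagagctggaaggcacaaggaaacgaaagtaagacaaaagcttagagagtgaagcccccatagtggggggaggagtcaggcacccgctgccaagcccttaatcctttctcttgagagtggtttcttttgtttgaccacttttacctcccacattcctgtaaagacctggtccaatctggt
Ccl7 (chr10:67513845-67514094, plus strand): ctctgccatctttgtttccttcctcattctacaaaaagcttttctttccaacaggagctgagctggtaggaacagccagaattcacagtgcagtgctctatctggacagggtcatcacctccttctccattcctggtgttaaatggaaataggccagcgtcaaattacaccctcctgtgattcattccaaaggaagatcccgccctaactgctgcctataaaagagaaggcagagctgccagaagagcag
Neither held the NF-kB consensus in this window. The Ccl7 promoter held TATAA at -34 to -30, found in 12 of the 28 ligand promoters (42.9%) and 24.1% of all promoters, and the AP-1 motif TGANTCA at -73 to -67, found in 4 of the 28 (14.3%) and 6.36% of all. The Cxcl17 promoter held neither of these. The motifs in the Ccl7 window do not overlap, and both strands were searched.

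The other mucosal and epithelial chemokines did not pass. Cxcl16, a transmembrane chemokine that is shed from the cell surface, was at 15.21, 15.35 and 14.62 on the EpiX arrays, against 14.70, 14.65 and 14.16 on the BEGM arrays, a difference of 0.56 ± 0.24 (SE; limma adjusted p = 0.239). It was higher in EpiX in all 3 same-numbered pairs, by 0.52, 0.69 and 0.46, although the media overlapped. Ccl20, which attracts Ccr6-bearing lymphocytes and dendritic cells, was at 7.56, 9.70 and 9.79 on the EpiX arrays, against 9.06, 10.98 and 9.94 on the BEGM arrays. Array 1 was the lowest in each medium, and the difference of -0.97 ± 0.70 (SE) was within the spread (adjusted p = 0.482, 95% interval -2.64 to 0.69). Ccl27, a skin chemokine, was low in both media, at 4.72, 5.02 and 4.87 in EpiX and 5.14, 5.65 and 5.15 in BEGM. Its arrays did not overlap, but the difference of -0.44 ± 0.19 (SE) did not pass (adjusted p = 0.225). Ccl25, Ccl26, Ccl28 and Cxcl14 completed the group, a group of 8 with 1 rise, 0 falls and 7 members without a call, and a median difference of -0.07.

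The interferon-type ligands Cxcl9, Cxcl10 and Cxcl11 attract activated T cells through Cxcr3, and lie side by side on chromosome 14. None of the 3 passed. Cxcl10 was at 9.12, 9.47 and 10.26 on the EpiX arrays, against 8.30, 9.24 and 8.60 on the BEGM arrays. It was higher in EpiX in all 3 pairs, by 0.81, 0.23 and 1.66, and the difference of 0.90 ± 0.35 (SE) did not pass in any setting (limma adjusted p = 0.192, and 0.128 to 0.518 over the alternatives). Cxcl9 was dim in both media, and Cxcl11 in EpiX. The core of IRF and ISRE elements was found in 2 of the 28 ligand promoters (7.14%), those of Cxcl10 and Ccl19, against 3.29% of all promoters.

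The lymphoid chemokines Ccl19, Ccl21, Cxcl12 and Cxcl13, which organise lymphocytes and stem cells in tissues, and the type 2 and lymphocyte chemokines Ccl1, Ccl11, Ccl17, Ccl22, Ccl24 and Xcl1 showed no called difference. Together with the members named above without values, they made up 22 ligands whose arrays overlapped between the media and whose mean was under the median of all genes in each medium. Their signals were 3.56 to 6.77 on the EpiX arrays and 3.13 to 7.35 on the BEGM arrays. Of these 22, 15 were dim in both media and another 2, Cxcl11 and Cx3cl1, in EpiX alone. Differences ran from -0.41 (Cxcl12) to 0.34 (Cxcl14), with adjusted p between 0.304 and 0.995. All 22 had a 95% interval inside -0.90 to 0.96, so a change of 2-fold or more lay outside the interval of each, as far as signals this low can show one.

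Receptors and regulators were read from lists of genes chosen by function. Each count of list genes called is to be read against the share of all genes called, 3.15% lower and 2.63% higher. Of 17 measured chemokine receptors 1 fell, 0 rose and 16 did not pass, and 10 were dim in both media. The 1 was Cxcr2, the receptor of the neutrophil ligands, at 4.77, 4.39 and 4.39 on the EpiX arrays, against 5.39, 5.95 and 5.97 on the BEGM arrays (-1.25 ± 0.21, SE, limma adjusted p = 0.0222). All 6 of its values lay inside the span of the background controls, and its call held where BEGM array 1 (adjusted p = 0.00431) or both arrays numbered 1 (0.00824) were left out, but not in the other 7 settings that leave arrays out (0.0569 to 0.374). Among the atypical receptors, which take up chemokines without signalling to migration, Ackr3, a scavenger of Cxcl12, rose by 1.76 ± 0.28 (SE, adjusted p = 0.0181). It was at 7.68, 6.68 and 6.90 on the EpiX arrays, against 5.11, 5.30 and 5.56 on the BEGM arrays. Its values other than that on EpiX array 1 lay inside the span of the background controls. Its call ended without EpiX array 2 (adjusted p = 0.0597) or BEGM array 2 (0.0862), and with both arrays numbered 2 (0.272) or 3 (0.066) left out. Ackr2, the other measured member of that list, did not pass. Of the chemokines with other symbols, Mif, an atypical chemokine kept ready inside cells, differed by 0.20 ± 0.26 (SE, adjusted p = 0.72).

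Of 20 measured cytokines, receptors and sensors that can induce chemokines, 1 rose, 2 fell and 17 did not pass, with a median of 0.17. Over all genes 2.63% rose and 3.15% fell. The alarm cytokine Il1a fell by 3.83 ± 0.74 (SE, limma adjusted p = 0.0321), at 10.70, 9.65 and 8.25 on the EpiX arrays, against 13.40, 14.47 and 12.23 on the BEGM arrays. The receptor Tnfrsf1b fell by 3.29 ± 0.47 (adjusted p = 0.0139), at 4.87, 4.47 and 4.71 in EpiX, against 6.97, 7.95 and 9.02 in BEGM, while the main tumour necrosis factor receptor Tnfrsf1a rose by 0.83 ± 0.18 (adjusted p = 0.0499, and 0.0598 with the array number as a block). The EpiX values of Tnfrsf1b and its value on BEGM array 1 lay inside the span of the background controls. The call for Il1a ended without EpiX array 1 (adjusted p = 0.0558), EpiX array 2 (0.133), EpiX array 3 (0.0713), BEGM array 2 (0.12) or both arrays of number 2 (0.397). That for Tnfrsf1b ended without EpiX array 1 (0.0598), EpiX array 2 (0.081), BEGM array 2 (0.0744) or both arrays of number 2 (0.317). The call for Tnfrsf1a held in 1 of the 9 settings that leave arrays out, that without BEGM array 1 (adjusted p = 0.0427, against 0.0566 to 0.428 in the others).

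Of 12 measured NF-kB subunits, inhibitors and feedback genes 2 fell (against 3.15% of all genes), 0 rose and 10 did not pass, with a median of -0.09. They were the inhibitor Nfkbie, which fell by 1.30 ± 0.16 (SE, limma adjusted p = 0.00976), and the subunit Rela, which fell by 0.75 ± 0.14 (adjusted p = 0.0321). Nfkbie was at 7.45, 7.64 and 7.95 on the EpiX arrays, against 9.02, 8.95 and 8.96 on the BEGM arrays. Rela was at 13.63, 13.61 and 13.57 on the EpiX arrays, against 14.15, 14.45 and 14.46 on the BEGM arrays. Without EpiX array 2 neither was called (Nfkbie adjusted p = 0.0674, Rela 0.141), nor without BEGM array 2 (Nfkbie 0.0503, Rela 0.116) or both arrays of number 2 (Nfkbie 0.272, Rela 0.401). The call for Rela also ended without EpiX array 1 (0.109), EpiX array 3 (0.0892), BEGM array 3 (0.087) or both arrays of number 3 (0.167).

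The interferon response list had 2 rises (against 2.63% of all genes), 0 falls and 15 genes that did not pass, with a median of 0.37. The antiviral genes Rsad2 and Oasl rose by 2.11 ± 0.23 (SE, limma adjusted p = 0.00711) and by 1.79 ± 0.30 (adjusted p = 0.0215). Rsad2 was at 6.30, 7.05 and 6.74 on the EpiX arrays, against 4.32, 4.83 and 4.60 on the BEGM arrays. Oasl was at 6.15, 6.76 and 6.40 on the EpiX arrays, against 4.45, 5.27 and 4.23 on the BEGM arrays. All values of Oasl, and those of Rsad2 except on EpiX array 2, lay inside the span of the background controls. Without both arrays of number 3 neither was called (Rsad2 adjusted p = 0.0521, Oasl 0.104), nor without both of number 2 (Rsad2 0.195, Oasl 0.17), and Oasl was not called without EpiX array 1 (0.0642), 2 (0.107) or 3 (0.0653).

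Of 13 genes for the cleavage, shedding and surface retention of chemokines 5 fell (against 3.15% of all genes), 0 rose and 8 did not pass, with a median of -0.25. The heparan sulphate proteoglycans Sdc3 and Sdc4, whose sugar chains hold chemokines at the cell surface, fell by 3.17 ± 0.26 (SE, limma adjusted p = 0.00268) and by 1.68 ± 0.17 (adjusted p = 0.00571). Sdc3 was at 7.12, 6.52 and 7.32 on the EpiX arrays, against 9.81, 10.23 and 10.45 on the BEGM arrays. Of the 16 alternatives, each call ended in 1, that without both arrays of number 2 (adjusted p = 0.17 for Sdc3 and 0.255 for Sdc4). The matrix metalloproteinase Mmp2, which can clip Ccl7, fell by 5.62 ± 1.25 (adjusted p = 0.0499), at 5.72, 6.21 and 6.52 in EpiX, against 8.71, 12.30 and 14.28 in BEGM. Within BEGM, its values had the order of the fibroblast mean, lowest on array 1 and highest on array 3, as had those of Ccl2, Ccl7, Cxcr2, Rela, Tnfrsf1b, Mmp3, Sdc3 and Sdc4. Cxcl1, Il1a, Nfkbie and Mmp9, which also fell, did not have that order. The share of all genes with that order was not counted, and a link to fibroblasts was not tested. Mmp3 fell by 3.28 ± 0.70 (adjusted p = 0.0441), and the fifth gene was Mmp9. Mmp9 was at 4.67, 4.34 and 4.86 on the EpiX arrays, against 5.93, 5.78 and 6.84 on the BEGM arrays. All values of Mmp9 and the EpiX values of Mmp2 lay inside the span of the background controls. So did those of Mmp3 on EpiX arrays 1 and 2 and of Sdc3 on EpiX array 2. The call for Mmp2 ended with quantile normalization (adjusted p = 0.0529), and a trended variance ended those for Mmp2 (0.062) and Mmp3 (0.0538). Among the settings that leave arrays out, the call for Mmp2 held where BEGM array 1 (adjusted p = 0.00078) or both arrays numbered 1 (0.00359) were left out, and ended in the other 7 (0.0712 to 0.465). The call for Mmp3 ended without EpiX array 1 (0.129), EpiX array 2 (0.175), BEGM array 2 (0.161), BEGM array 3 (0.108) or both arrays of number 2 (0.46).

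**Figure D3:**
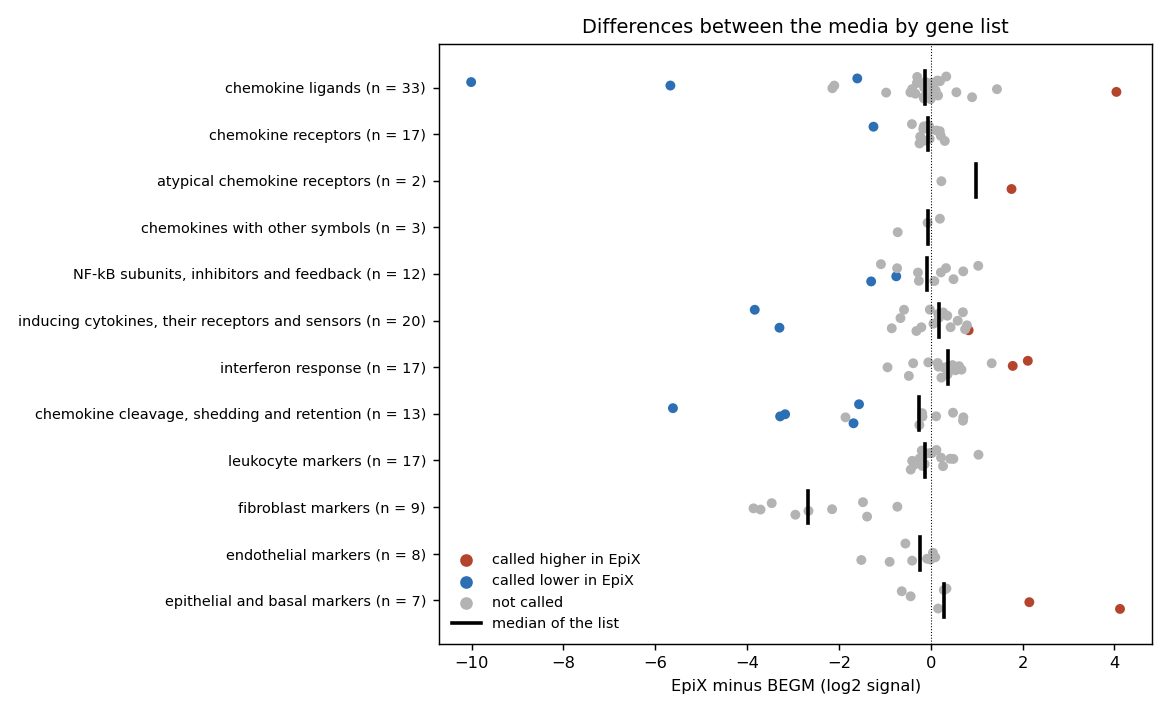
Difference between EpiX and BEGM in log2 signal for every measured gene of the chemokine ligands, the 7 receptor, regulator and related lists and the 4 cell marker lists, with called genes in colour and the median of each list as a black bar. The ligands spread from -10.01 to 4.04 around a median of -0.12, and the fibroblast genes lie wholly below 0 with none called.

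**Figure D4:**
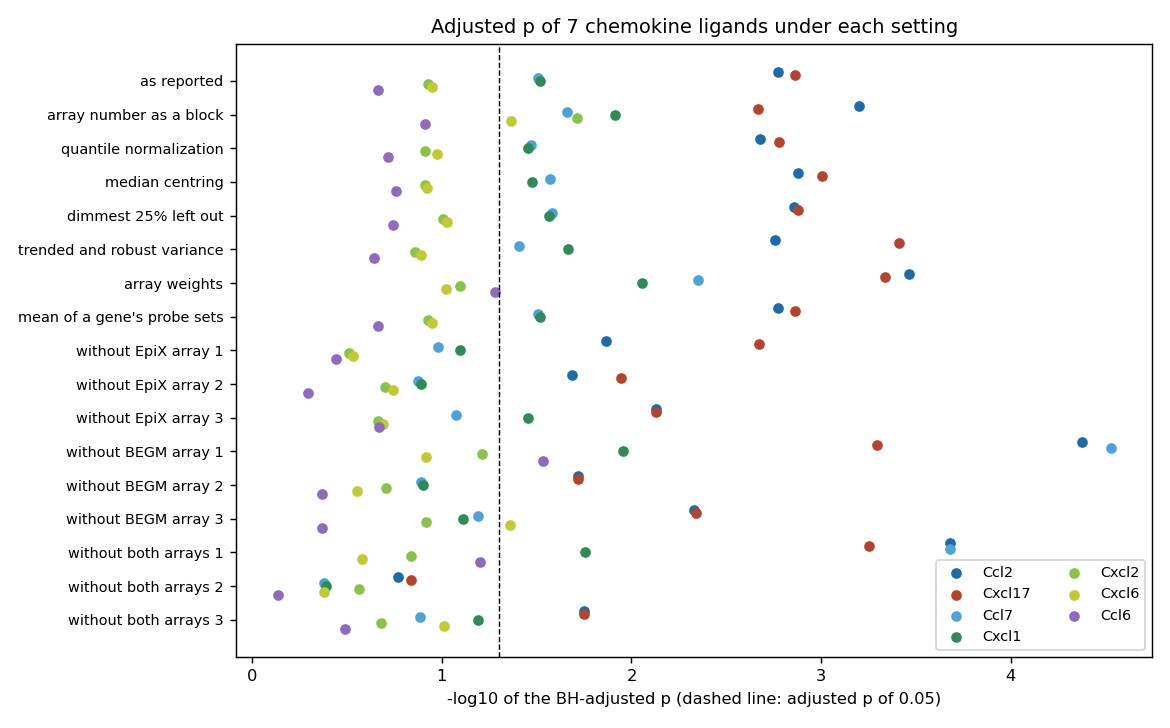
Benjamini-Hochberg adjusted p, as -log10, of 7 ligands under the reported fit and each alternative, one row per setting, with the threshold as a dashed line. Ccl2 and Cxcl17 stay right of the line in every row but the one without both arrays of number 2, Ccl7 and Cxcl1 lie left of it in most rows that leave arrays out, and Cxcl2 and Cxcl6 lie right of it with the array number as a block.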

How the data were processed

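Biotin-labelled RNA was hybridised to Affymetrix arrays, per the labels' protocols. The Transcriptome Analysis Console is the tool named, per the submitters' processing notes. The authors' deposited log2 values hold 1 signal for each of 24834 probe sets on each of 6 arrays, and how they were made is not given in the sources used here. No source states the scale, base or centring. The range, 2.62 to 18.66, was read as log2, and folds assume base 2. No detection calls were used.

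The 15049 probe sets with 1 platform symbol gave 15037 genes, with the brightest probe set kept for 10 genes. Probe sets with no symbol, controls included, numbered 9785 and were left out. All 33 ligands kept their symbol in RefSeq (GRCr8) by Entrez ID. Promoters came from a RefSeq table, which held 28 of them.

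Each gene's 6 values were modelled on medium alone with limma 3.58.1 in R 4.3.3 (lmFit, eBayes, 2-sided, Benjamini-Hochberg over all genes), and tested on simulated data. "Called", "rose" and "fell" mean an adjusted p under 0.05. Lists were described by counts and medians. The ligands called, or with arrays that do not overlap, or with a mean above the median of all genes, were described singly, with up to 4 called genes of each list. The ligands, lists and tests were chosen with earlier results of these data known. p-values measure the spread between 3 pooled lines in each medium, and the number of arrays limits the precision.

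An EpiX and a BEGM array with one number were read as a split line. The labels say that each line was divided between the media, and the titles pair the same arrays. Array numbers here are the labels' sample numbers. The titles give number 1 as 1 and number 2 as 3, and the titles of number 3 carry no such number. No label states which line a number is. Deviations of same-numbered arrays from the group means correlated over genes at 0.32, -0.01 and 0.32 for numbers 1, 2 and 3, against -0.37 to 0.16 for other pairs. The alternatives were that number as a block, quantile normalization, median centring, array weights (statmod 1.5.0), a variance trended on level and robust, a filter dropping the dimmest 25% of genes, probe sets averaged per gene, and leaving out each array or both arrays of a number.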

Additional observations from a re-analysis of the deposited data

How the results depend on the processing

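Of the 4 called ligands, all kept direction in the 16 alternatives run and kept the call in the 7 that leave out no array. The count of ligands lower was 3 and became 5 with the array number as a replicate block. Leaving out arrays gave 0 to 3 ligands lower and 0 to 2 higher, 0 to 1101 of all genes lower and 0 to 988 higher, and 0 to 17 list members lower and 0 to 14 higher. Without both arrays of number 2, limma called 0 of 15037 genes. In that fit 1582 of all genes, among them 7 of the 33 ligands, had an unadjusted p under 0.05. Such a fit has fewer samples, but 2 fits of the same size kept calls. Without both arrays of number 1, 731 of all genes were lower and 620 higher, and without both of number 3, 169 and 95. Array weights gave 1031 of all genes lower and 956 higher, and 20 list members lower, against 17 with the array number as a block. That block ended the call for Tnfrsf1a and gave one to Cxcl2, Cxcl6 and Col1a2. It changed no other call among the 11 ligands described singly and the list genes run one by one. Those list genes leave out Mmp9, Ackr2, Dcn, Pdgfra, Krt14, Cdh1, Epcam, Ngfr, Itga6 and the marker genes given by level alone. Col1a1 was called with array weights (adjusted p = 0.0298), without BEGM array 1 (0.0252) and without BEGM array 3 (0.0204), and Col1a2 with array weights (0.0184), without BEGM array 1 (0.00951), BEGM array 3 (0.0235) or both arrays numbered 1 (0.0311). Esam was called with array weights (0.0151). The call for Mmp2 ended with quantile normalization (adjusted p = 0.0529) and with the trended variance (0.062), and that for Mmp3 with the trended variance (0.0538). Leaving out arrays turned the uncalled difference of Ppbp to 0.39 (BEGM array 1) and 0.22 (both arrays numbered 1), within -1.58 to 0.39, and that of Mif to -0.094 (both numbered 3), within -0.094 to 0.42. The causes were not tested. Signals inside the span of the background controls limit every difference that rests on them, those of Ccl2 and Ccl7 in EpiX and Cxcl17 in BEGM among them.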
